A study of Drosophila melanogaster with 22 samples.

Results

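Antennal lobe neuroblasts and type II neuroblasts of the larval Drosophila brain were set against each other gene by gene. The comparison uses the 3 libraries labelled antennal lobe neuroblast and the 3 labelled type II neuroblast, 6 of 22 libraries in the series, all from larvae 50 h after hatching and raised at 25 °C. Members were chosen by label alone, and all 15339 genes of the count table entered, of which 9249 passed the filter on low counts. Each library is a pool of GFP-labelled cells that a robot picked from dissociated brains, with 106 to 121 cells in antennal lobe and 101 to 124 cells in type II libraries. The labels name neither the fly genotypes nor the driver behind the GFP of each lineage, so a group means the cells that its label names (the source is given as antennal lobe for one group and as brain for the other). Mushroom body neuroblasts (3 libraries) and pooled neuroblasts of all lineages (3 libraries), of the same age, share the fit so that the 4 groups give 1 estimate of the spread. Whether replicates were separate preparations is not stated, and the p values therefore measure the spread between these libraries, which may be technical.

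Neuroblasts are the stem cells of the fly brain, and each divides many times to found its own lineage of neurons and glia. A type I neuroblast, as those of the antennal lobe, buds off ganglion mother cells that divide once more into neurons; it holds the basic helix-loop-helix factor Asense and passes the homeodomain protein Prospero to its daughter. A type II neuroblast lacks Asense and buds off intermediate progenitors, which themselves divide several times, so its lineage grows larger; the ETS factor Pointed, the related zinc finger factors Sp1 and Buttonhead (btd) and the nuclear receptor Tailless are tied to this mode.

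Antennal lobe libraries held 7771032 to 8947555 gene counts with 10677 to 11002 genes detected, and type II libraries 4512098 to 5765181 gene counts with 9765 to 10797 genes. The ribosomal RNA genes CR41602 and CR40677 took 10.8% of gene counts in each antennal lobe library and 12.7 to 16.2% in type II libraries. On log CPM (counts scaled to a common library size by TMM), replicates correlated at 0.916 to 0.926 in antennal lobe and 0.927 to 0.942 in type II neuroblasts. The spike-in RNA (ERCC) had 34835 to 36613 counts in antennal lobe libraries, against 6930, 16505 and 17865 in type II libraries, so type II library 1 stood apart. The RNA per cell below rests on these counts, and more RNA per cell in that library cannot be told apart from less spike-in added to it. Relative to the antennal lobe mean, RNA per cell was 1.07, 0.897 and 1.03 in antennal lobe and 3.26, 1.32 and 1.21 in type II libraries, so every type II library lay above every antennal lobe library. The log2 difference was -0.80 (exact two-sided permutation p = 0.1, the smallest that 3 against 3 libraries allow) and -0.35 without type II library 1.

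Of the 9249 genes tested, 562 (6.08%) were higher in antennal lobe neuroblasts and 494 (5.34%) lower, 11.4% in all, by edgeR's quasi-likelihood test at a Benjamini-Hochberg adjusted p below 0.05. The median log2 change was 0.00. Changes past 4-fold either way (2 on the log2 scale) were found in 178 genes that rose and 97 that fell, and 16-fold ones (log2 of 4) in 68 and 39. Of the called genes, 548 that rose and 477 that fell did not overlap between the 3 antennal lobe and the 3 type II libraries, as was so of 1404 higher and 1352 lower ones among all 9249 tested, and 16 that rose and 9 that fell had no count in the lower group. These are changes in the share of RNA. With counts scaled by ERCC per cell the median moved to -1.06, and 100 genes were higher and 3179 lower; without type II library 1 that scaling gave a median of -0.43, with 217 higher and 1261 lower. All changes given here are relative to the TMM scaling, and no called gene turned into a call of the opposite direction under the ERCC scaling or any other setting tried. In pools of cells, fewer cells that express a gene and less of its RNA per cell cannot be told apart.

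**Figure D1:**
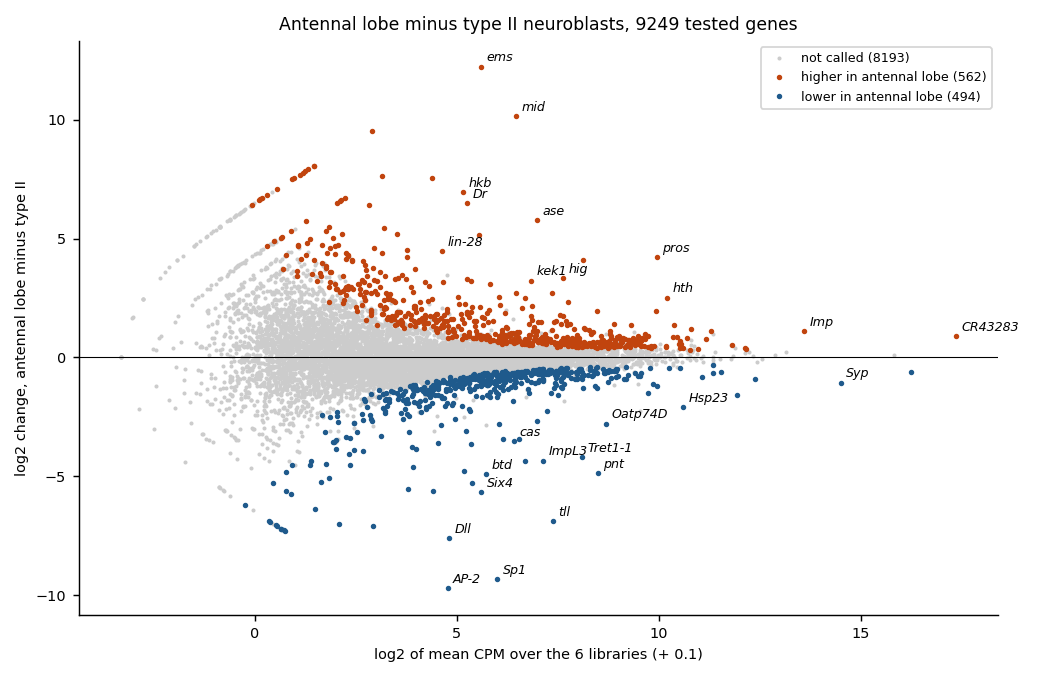
Log2 change (antennal lobe minus type II) of each of 9249 tested genes against the log2 of its mean CPM over the 6 libraries (plus 0.1), with 562 genes higher in antennal lobe in red, 494 lower in blue and the 8193 not called in grey. ems and mid lie at the top with log2 changes of 12.22 and 10.14, AP-2 and Sp1 at the bottom with -9.71 and -9.32, and the abundant RNAs Imp, Syp and CR43283 at the far right with changes near 1 in size.

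The labels were first read against lineage factors. The head gap gene ems, a homeobox factor of antennal lobe lineages (FBgn0000576, chromosome 3R, 9727581 to 9730346 in dm3), stood at 77.5, 105 and 106 CPM in the 3 antennal lobe libraries, against no count in any type II library. With a floor of 3 counts over the type II group it was at least 469-fold higher in antennal lobe neuroblasts (adjusted p = 3.10e-07). The T-box gene mid (FBgn0261963, chromosome 2L, 5461641 to 5466829 in dm3) stood at 164, 209 and 160.4 CPM in antennal lobe libraries, against 0, 0 and 0.436 CPM in type II libraries. That is 3936 counts against 2, a ratio of 1293 with a 95% interval of 358 to 10680.1 that covers counting error alone. Its paralog and neighbour on the chromosome, H15, rose with it at a lower level, with 4.80, 6.99 and 4.14 CPM in antennal lobe libraries, against no count in type II libraries. Per length, mid averaged 149 TPM and H15 5.11 TPM in antennal lobe neuroblasts, in the deposited TPM (a length-scaled share of transcripts).

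Other transcription factors marked the antennal lobe libraries in the same way. hkb, a zinc finger factor of the embryonic termini, stood at 64.4, 63.2 and 83.5 CPM in antennal lobe libraries, against 0.528, 1.15 and 0 CPM in type II libraries (log2 change 6.95 ± 0.69, adjusted p = 3.69e-07). The homeobox gene Dr, which patterns the dorsal neuroectoderm, stood at 56.0, 87.9 and 81.6 CPM, against 1.06, 1.15 and 0.218 CPM in type II libraries (log2 change 6.49 ± 0.48, adjusted p = 6.65e-10). All 5 antennal lobe factors on the list rose, so 100% were called against 11.4% of all genes. The list was chosen with earlier results of these data known, so its share called is not independent evidence for the labels. Their median log2 change was 8.05 against 0.00 over all genes, and all 5 rose with each library left out and under ERCC scaling.

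The type I factor ase (FBgn0000137, chromosome X, 354533 to 357209 in dm3) stood at 319, 214 and 213 CPM in antennal lobe libraries, against 5.63, 4.82 and 3.05 CPM in type II libraries (log2 change 5.77 ± 0.25, adjusted p = 1.76e-14). Type II libraries so held a low but measurable level of ase, below every antennal lobe library. An overlapping gene on the opposite strand, CG32816, had 81 counts in antennal lobe and 18 in type II libraries, against 5519 and 67 for ase, so reads of the pair, if assigned without strand, could touch the low type II level. pros, which passes to the ganglion mother cell and turns off the stem cell programme, stood at 2115, 1875 and 1668 CPM in antennal lobe libraries, against 138, 93.6 and 71.2 CPM in type II libraries (log2 change 4.22 ± 0.22, adjusted p = 2.18e-09). The groups lay far apart, and pros was the most abundant, by CPM, of the 12 genes with the largest rise. Of the proneural list 3 of 7 tested members rose and 1 fell, 57.1% against 11.4% of all genes, with 1 rise and 1 fall under ERCC scaling. Besides ase the rises were l(1)sc (log2 change 2.15, adjusted p = 0.0101), which also overlaps CG32816, and the inhibitor emc (log2 change 1.51, adjusted p = 5.86e-05), while ato, the proneural gene of chordotonal organs and the eye, fell. ato stood at 0, 0.143 and 0 CPM in antennal lobe, against 5.10, 0 and 10.9 CPM in type II libraries, so the groups overlapped at 0, and its call held in 3 of the 6 fits that leave out 1 library.

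On the other side, Sp1 (FBgn0020378, chromosome X, 9623681 to 9649831 in dm3) stood at 0.137, 0.143 and 0.251 CPM in antennal lobe libraries, against 124, 140.4 and 118 CPM in type II libraries (log2 change -9.32 ± 0.42, adjusted p = 2.63e-13). Its paralog btd, close by on the X chromosome, stood at 6.72, 0.428 and 3.01 CPM in antennal lobe, against 86.9, 126 and 93.4 CPM in type II libraries (log2 change -4.90 ± 0.84, adjusted p = 0.00414). In type II neuroblasts Sp1 averaged 72.9 TPM and btd 84.0 TPM, a like level per length, while the antennal lobe mean of btd rested on libraries that spread from 0.428 to 6.72 CPM.

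tll stood at 2.88, 2.43 and 2.88 CPM in antennal lobe libraries, against 257, 374 and 351 CPM in type II libraries (log2 change -6.89 ± 0.22, adjusted p = 2.97e-17, the smallest adjusted p of the 116 genes chosen for naming). pnt stood at 24.8, 34.4 and 12.4 CPM in antennal lobe, against 643, 783 and 649.7 CPM in type II libraries (log2 change -4.86 ± 0.37, adjusted p = 4.13e-06), so a low level of pnt RNA was counted in each antennal lobe library. Optix, a sine oculis-family homeobox gene, stood at 1.78, 0.714 and 0 CPM in antennal lobe, against 28.3, 44.7 and 50.3 CPM in type II libraries (log2 change -5.61 ± 0.72, adjusted p = 1.18e-05). Of the 6 type II factors 5 fell and 1, the forkhead gene fd59A, was not called, with 14.8, 6.99 and 6.52 CPM in antennal lobe and 18.3, 2.98 and 2.40 CPM in type II libraries. The share called was 83.3% against 11.4% of all genes, in a list that was also chosen with earlier results of these data known. The median of the list was -5.26, and the count of 5 held with each library left out and under ERCC scaling.

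**Figure D2:**
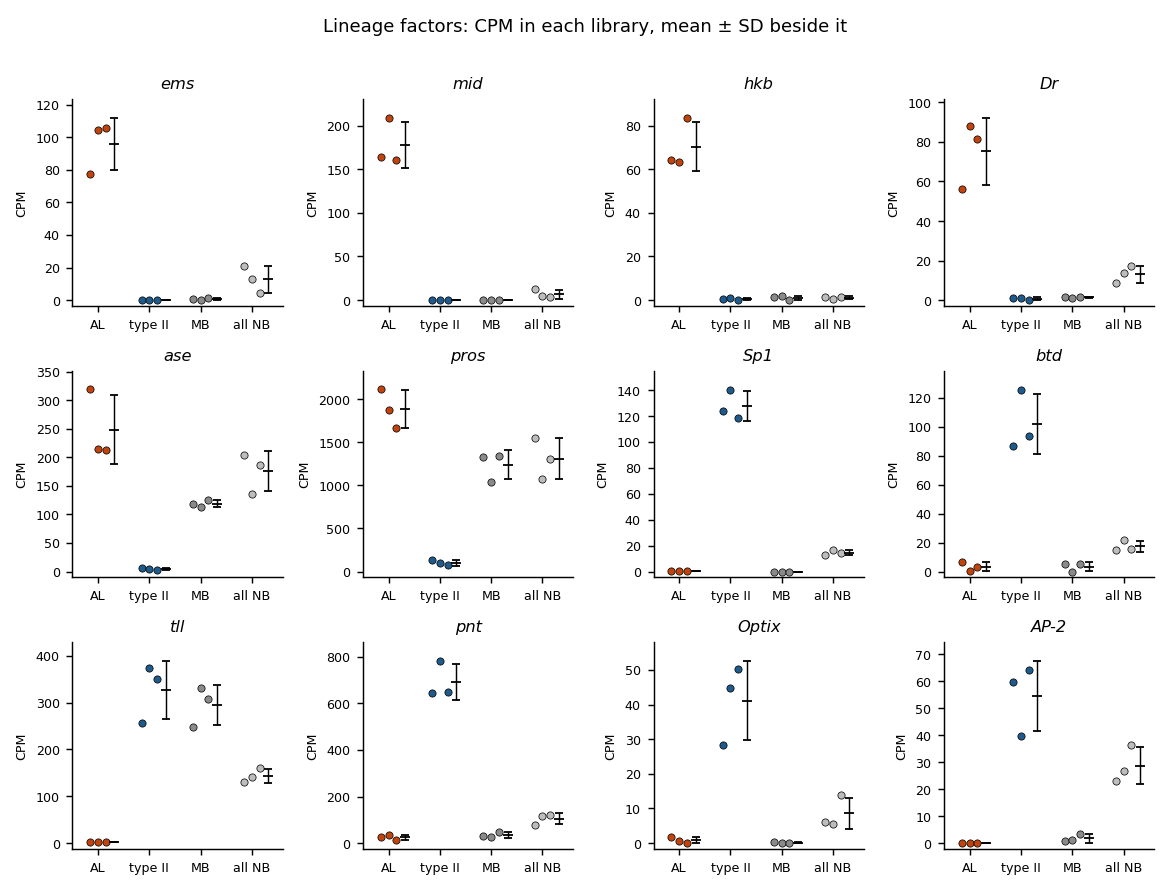
CPM of 12 lineage factors in each library of antennal lobe (AL), type II, mushroom body (MB) and pooled (all NB) neuroblasts, 3 libraries each, with the mean and SD as a bar beside the points. ems, mid, hkb, Dr, ase and pros are high in antennal lobe libraries, Sp1, btd, tll, pnt, Optix and AP-2 in type II libraries, and tll is also high in mushroom body neuroblasts with a mean of 295 CPM.

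The pooled neuroblasts of all lineages lay between the groups for most of these factors. ems averaged 12.8 CPM there, Dr 13.2 CPM, Sp1 14.7 CPM and pnt 105 CPM, while hkb averaged only 1.11 CPM. Of 9 genes listed as mushroom body lineage factors 4 (toy, dac, slp1, slp2) rose and 1, tll, fell, 55.6% against 11.4% of all genes. Under ERCC scaling 1 rose and 3 fell. In mushroom body neuroblasts themselves slp1 and slp2 were nearly absent, with means of 0.078 and 0.964 CPM. The 9 genes summed to 295 to 307 CPM in antennal lobe and 352 to 508 CPM in type II libraries. Most of the type II sum was tll, and mushroom body libraries summed to 1215 to 1449 CPM. retn, an ARID-domain factor that was not called, averaged 4.55 CPM in antennal lobe and 3.99 CPM in type II libraries, against 523 CPM in mushroom body neuroblasts.

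The 12 largest rises and 12 largest falls among genes at 20 CPM or more in the higher group held 7 and 9 transcription factors. The annotation term behind these counts was carried by 328 of all 9249 genes tested. The rule asked for groups that do not overlap, so their separation is not a finding. Besides those above, the rises held Awh, a LIM homeobox factor (log2 change 5.18, adjusted p = 0.00148), dpr17, an immunoglobulin-domain surface protein of the dpr family (log2 change 7.54, adjusted p = 4.45e-05), and the RNA-binding protein lin-28. SoYb, a Tudor-domain protein known from the piRNA pathway of the ovary, stood at 29.4, 24.3 and 23.6 CPM in antennal lobe, against 0.352, 0.688 and 2.40 CPM in type II libraries (log2 change 4.50, adjusted p = 1.07e-06). It lies in the span of CG31875 on the same strand, so its reads are uncertain. CG42324 (log2 change 5.16, adjusted p = 0.00123) and CG15365 (log2 change 4.21, adjusted p = 9.00e-05) completed the set.

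Among the falls, AP-2 had 1 count in the antennal lobe libraries together, against 59.6, 39.7 and 64.0 CPM in type II libraries, 806 counts, for a ratio of 1227 with a 95% counting interval of 219.6 to 48516. The appendage homeobox gene Dll stood at 0.137, 0 and 0.627 CPM in antennal lobe, against 47.3, 63.8 and 56.2 CPM in type II libraries (log2 change -7.61 ± 0.63, adjusted p = 5.56e-09). Six4, another sine oculis-family gene, stood at 3.84, 0.714 and 1.00 CPM in antennal lobe, against 121, 88.3 and 76.0 CPM in type II libraries (log2 change -5.67 ± 0.58, adjusted p = 2.37e-06). Hmx, a homeobox gene, fell too (log2 change -5.55, adjusted p = 4.45e-05), as did mfas, a secreted fasciclin-domain protein (log2 change -4.79, adjusted p = 2.37e-06), CG10936 (log2 change -5.27, adjusted p = 0.0036) and the small heat shock gene Hsp67Bc (log2 change -4.62, adjusted p = 0.0273). The call of Hsp67Bc held in only 2 of the 6 fits that leave out 1 library. The retinal determination gene eya, a partner of such homeobox proteins, fell (log2 change -3.41 ± 0.63, adjusted p = 0.00548), with 8.65, 25.0 and 2.88 CPM in antennal lobe and 116, 144 and 125 CPM in type II libraries. The related gene so was not called (log2 change 0.41, adjusted p = 0.606).

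Intermediate progenitors, the daughters of type II neuroblasts, could enter a sort of their lineage, so their factors were read next. The defining genes erm, opa, grn and ham were not called. erm stood at 0, 1.28 and 0 CPM in antennal lobe and 1.06, 0.918 and 0.218 CPM in type II libraries, and grn at 4.67, 17.3 and 9.52 CPM in antennal lobe and 7.21, 10.1 and 10.5 CPM in type II libraries. opa, at 8.37, 5.00 and 13.5 CPM in antennal lobe and 4.57, 0 and 0 CPM in type II libraries, was no higher in type II libraries either. Of 13 tested members 3 rose (D, slp1 and slp2) and 1, AP-2, fell. That is 30.8% of the list called against 11.4% of all genes, with a median log2 change of 1.62. But under ERCC scaling none rose and 3 fell, with a median of 0.78. D, a Sox factor, stood at 221, 368 and 286 CPM in antennal lobe, against 60.7, 80.3 and 109.8 CPM in type II libraries (log2 change 1.80 ± 0.20, adjusted p = 1.21e-06). The paired forkhead genes slp1 (log2 change 1.62, adjusted p = 0.00964) and slp2 (log2 change 1.74, adjusted p = 0.044) rose by a like amount, but the calls held in 5 of 6 fits without a library for slp1 and 1 of 6 for slp2.

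Genes of the general neuroblast programme were well detected in both groups. wor, a Snail-family zinc finger factor, stood at 704, 760.0 and 699.6 CPM in antennal lobe, against 419, 480.5 and 568 CPM in type II libraries (log2 change 0.56 ± 0.15, adjusted p = 0.0162). klu, a zinc finger factor of neuroblast self-renewal, stood at 1191, 1038 and 955 CPM in antennal lobe, against 525, 621 and 477 CPM in type II libraries (log2 change 0.97 ± 0.17, adjusted p = 0.00041). dpn, a Hes-family repressor, stood at 630.0, 639 and 539 CPM in antennal lobe, against a wide spread of 202, 366 and 514 CPM in type II libraries (log2 change 0.74 ± 0.23, adjusted p = 0.0478), and its call held in 2 of 6 fits without a library. Of 11 stem cell factors 5 rose and 2 fell, 63.6% against 11.4% of all genes, with 1 to 4 rises and 1 to 2 falls over the fits that leave out 1 library. Under ERCC scaling none of the list rose, 3 fell, and klu, wor and dpn changed sign, at -0.10, -0.46 and -0.11. The 2 that fell were nab, a transcriptional cofactor (log2 change -0.80, adjusted p = 0.00115), and nerfin-1, which keeps neurons differentiated (log2 change -1.84, adjusted p = 0.0399), in a call that 1 of 6 fits without a library kept.

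Neuroblasts change their output with age, which RNA-binding proteins and transcription factors time; Imp is high early and Syp late in the lineages where they were studied. Both timing sets differed here at 1 larval age. Imp stood at 20559, 15368 and 14839 CPM in antennal lobe, against 8029, 8589 and 6861 CPM in type II libraries (log2 change 1.11 ± 0.13, adjusted p = 1.61e-06). Syp stood at 14445, 14492 and 16218 CPM in antennal lobe, against 31622, 34266 and 27914 CPM in type II libraries (log2 change -1.05 ± 0.11, adjusted p = 4.47e-07). The groups did not overlap for either gene, and both were among the most abundant RNAs. Under ERCC scaling the call of Syp held and that of Imp did not. Per length, Imp averaged 3071 TPM and Syp 3282 TPM in antennal lobe, near parity, against 1401 TPM of Imp and 6733 TPM of Syp in type II neuroblasts.

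The genes that act with Imp and Syp split the same way. chinmo, a zinc finger factor of early-born fates, stood at 2464, 2081 and 1860.4 CPM in antennal lobe, against 1293, 1294 and 996 CPM in type II libraries (log2 change 0.84 ± 0.20, adjusted p = 0.0131). br, an ecdysone-induced zinc finger factor of later phases, stood at 515, 539.9 and 579 CPM in antennal lobe, against 979, 912 and 905 CPM in type II libraries (log2 change -0.78 ± 0.17, adjusted p = 0.00444). lin-28, a heterochronic RNA-binding protein that was first studied in the worm, stood at 59.1, 62.1 and 20.8 CPM in antennal lobe, against 1.58, 2.75 and 2.18 CPM in type II libraries (log2 change 4.45 ± 0.39, adjusted p = 3.96e-08). Antennal lobe library 3 was the lowest of its group for lin-28 and still far above type II.

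2 further timing factors moved, each in its own direction. svp, a nuclear receptor that acts as a switch in neuroblast timing, stood at 368, 307 and 235 CPM in antennal lobe, against 102, 136 and 117 CPM in type II libraries (log2 change 1.36 ± 0.26, adjusted p = 0.00274). cas, a zinc finger factor of the embryonic series that is used again in larval neuroblasts, stood at 8.23, 21.6 and 11.0 CPM in antennal lobe, against 92.2, 132 and 247 CPM in type II libraries (log2 change -3.53 ± 0.48, adjusted p = 0.000613). cas varied more than 2-fold within each group but the groups did not overlap. Of 10 tested timing factors 4 rose (Imp, chinmo, svp, lin-28) and 3 fell (Syp, br, cas), 70.0% against 11.4% of all genes. Over the fits without a library 3 to 4 rose and 3 fell. Under ERCC scaling 1 rose, which was lin-28, 4 fell and chinmo stood at -0.29. Side by side, mushroom body neuroblasts averaged 8997 CPM of Imp and 1593 CPM of Syp, and pooled neuroblasts 10072 and 14963 CPM.

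**Figure D3:**
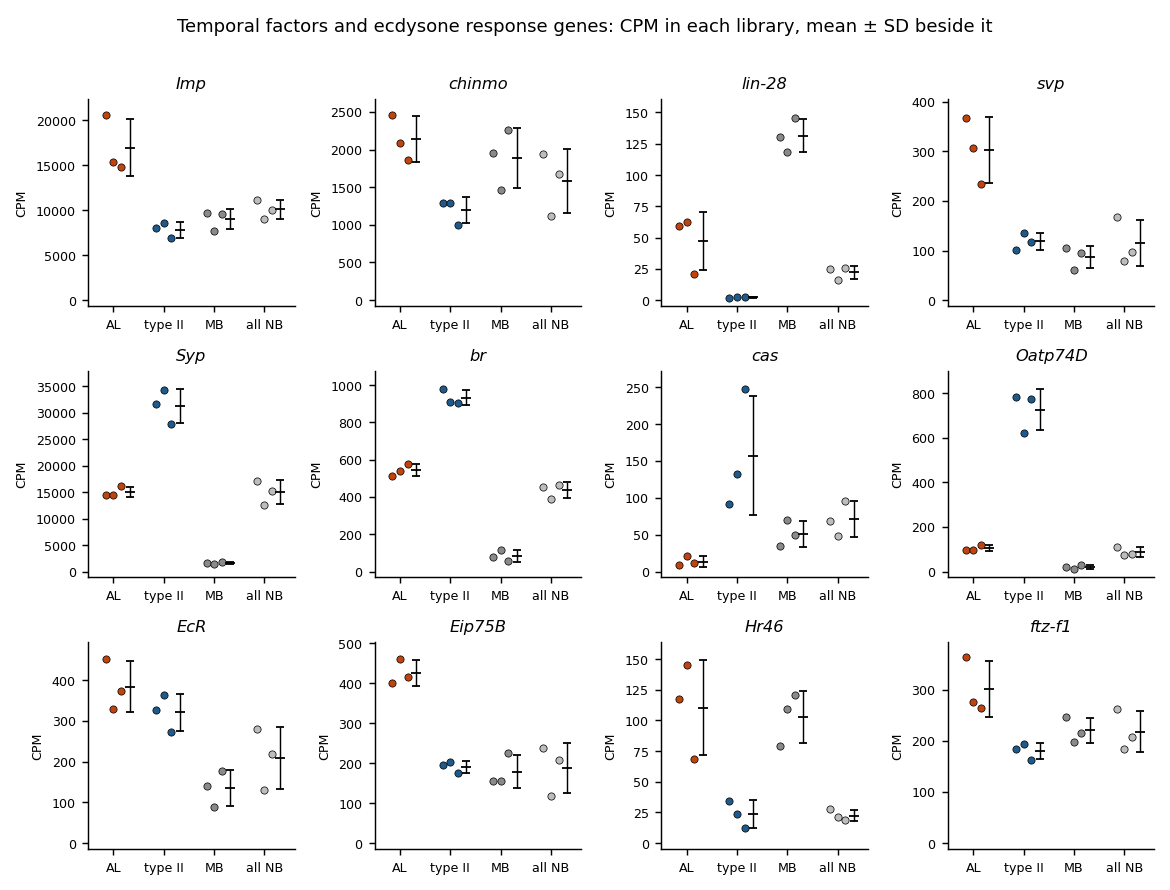
CPM of 7 timing factors and 5 ecdysone genes in each library of antennal lobe (AL), type II, mushroom body (MB) and pooled (all NB) neuroblasts, 3 libraries each, with the mean and SD beside the points. Imp, chinmo, lin-28 and svp are higher in antennal lobe than in type II libraries, Syp, br, cas and Oatp74D lower, and EcR overlaps between those groups.

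Ecdysone, the moulting steroid, enters cells through the importer Oatp74D, binds the receptor EcR and turns on a cascade of nuclear receptors. The importer gene Oatp74D stood at 96.1, 98.6 and 119.8 CPM in antennal lobe, against 782, 622 and 775 CPM in type II libraries (log2 change -2.79 ± 0.24, adjusted p = 4.53e-07). EcR itself was not called, with 451, 328 and 373 CPM in antennal lobe and 327, 363 and 272 CPM in type II libraries (log2 change 0.26 ± 0.27, adjusted p = 0.59). The nuclear receptor genes Hr46, Eip75B and ftz-f1 of the cascade went the other way from the importer. Hr46 (the hormone receptor DHR3) stood at 117, 145 and 68.9 CPM in antennal lobe, against 34.7, 24.1 and 12.4 CPM in type II libraries (log2 change 2.21 ± 0.32, adjusted p = 0.000118). Eip75B (E75) stood at 400.0, 461 and 415 CPM in antennal lobe, against 196, 202 and 174 CPM in type II libraries (log2 change 1.16 ± 0.20, adjusted p = 0.000649). ftz-f1, a later receptor of the cascade, rose by 0.74 on the log2 scale (adjusted p = 0.00306). Of 15 tested ecdysone genes 5 rose and 2 (Oatp74D and br) fell, 46.7% against 11.4% of all genes, and 3 to 5 rose over the fits without a library, while under ERCC scaling none rose, 3 fell and ftz-f1 stood at -0.35.

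Glycolysis and oxidative phosphorylation genes gave falls and no rise. Of 13 glycolysis genes 11 fell and none rose, with a median log2 change of -1.21, against 5.34% of all tested genes that fell. Lactate dehydrogenase, ImpL3, stood at 8.10, 18.7 and 13.0 CPM in antennal lobe, against 322, 237 and 248 CPM in type II libraries (log2 change -4.34 ± 0.43, adjusted p = 4.45e-05). Aldolase, Ald, stood at 522, 710.2 and 567 CPM in antennal lobe, against 1498, 1348 and 1315 CPM in type II libraries (log2 change -1.21 ± 0.14, adjusted p = 1.04e-06). Gapdh1 stood at 220.1, 201 and 204 CPM in antennal lobe, against 495, 534 and 474 CPM in type II libraries (log2 change -1.26 ± 0.13, adjusted p = 1.52e-07). No antennal lobe library reached a type II library for any of these 3. Enolase, Eno (log2 change -1.04, adjusted p = 4.68e-06), and phosphoglycerate mutase, Pglym78 (log2 change -1.30, adjusted p = 6.45e-07), fell too, and pyruvate kinase, PyK, was not called (log2 change -0.28, adjusted p = 0.274). The count of falls was 9 or 10 over the fits without a library and 13 under ERCC scaling. ImpL3 also varied outside the pair, at 188 CPM in mushroom body and 3.39 CPM in pooled neuroblasts.

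Oxidative phosphorylation followed with smaller changes. Of 25 tested genes 16 fell and none rose, 64.0% against 5.34% of all genes that fell, with a median of -0.65, and 24 fell under ERCC scaling. The cytochrome c oxidase subunit gene CoIV stood at 73.1, 67.9 and 79.4 CPM in antennal lobe, against 132, 118 and 143 CPM in type II libraries (log2 change -0.84 ± 0.17, adjusted p = 0.00179). The complex I gene ND42 (log2 change -1.08, adjusted p = 0.00386) and the ATP synthase genes ATPsyn-Cf6 (log2 change -0.86, adjusted p = 0.00425) and ATPsyn-d (log2 change -0.65, adjusted p = 0.00502) fell as well. The number of falls rested on all libraries, with 6 to 13 over the fits without one of them and 9 without type II library 1. Mitochondrial ribosomal protein genes gave 10 falls and no rise among 74, a share called (13.5%) near the 11.4% of all genes, with a median of -0.74. The falls numbered 3 to 13 without a library, 3 without type II library 1, and 55 under ERCC scaling with a median of -1.74. mRpS25 (log2 change -2.76, adjusted p = 0.00366) and mRpL46 (log2 change -2.06, adjusted p = 0.00133) were among them. Cytosolic ribosomal protein genes gave 7 falls and 1 rise among 87, 9.20% called, with a median of -0.16. The falls ranged from 1 to 18 over the fits without a library, and under ERCC scaling 79 fell with a median of -1.29, beside -1.06 for all genes. RpS12 (log2 change -0.56, adjusted p = 0.0043) and RpL3 (log2 change -0.45, adjusted p = 0.0167) fell, and RpS7 rose (log2 change 0.36, adjusted p = 0.0231) but stood at -0.71 under ERCC scaling. The calls of RpL3 and RpS7 each held in 3 of 6 fits without a library.

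**Figure D4:**
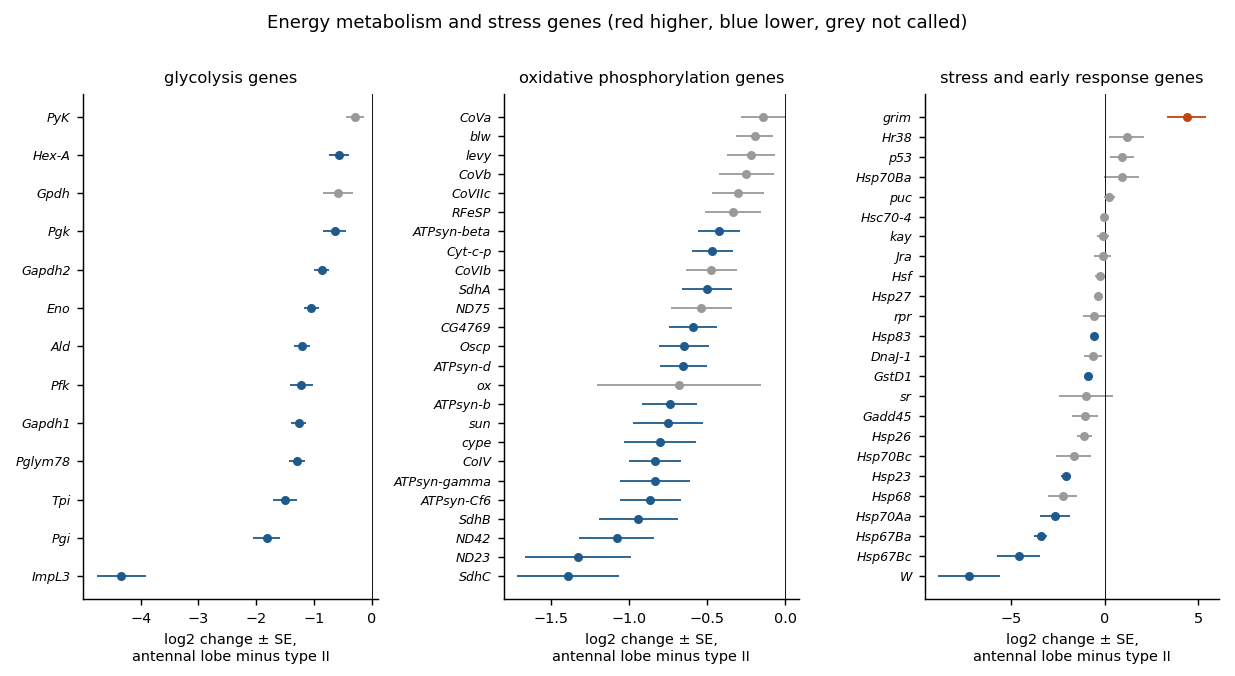
Log2 change (antennal lobe minus type II, with its SE as a bar) of the tested members of 3 gene lists, red where higher, blue where lower and grey where not called in antennal lobe neuroblasts. The points of the glycolysis and oxidative phosphorylation lists lie left of 0, with ImpL3 farthest at -4.34, while the stress list holds 7 falls, 1 rise and 16 genes not called.

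Stress genes and the share of ribosomal RNA also differed between the groups. Of 24 tested stress and early response genes 7 fell and 1 rose, 33.3% against 11.4% of all genes, with a median of -0.61. The falls numbered 4 to 6 over the fits without a library, 4 without antennal lobe library 1, and 16 under ERCC scaling. The small heat shock gene Hsp23 stood at 446, 692 and 636 CPM in antennal lobe, against 2753, 2236 and 2537 CPM in type II libraries (log2 change -2.08 ± 0.27, adjusted p = 0.000516). Hsp67Ba stood at 9.61, 16.0 and 21.7 CPM in antennal lobe, against 185, 131 and 194 CPM in type II libraries (log2 change -3.43 ± 0.34, adjusted p = 1.04e-06). The detoxifying enzyme gene GstD1 (log2 change -0.91, adjusted p = 4.77e-05) and the chaperone gene Hsp83 (log2 change -0.59, adjusted p = 0.00414) fell too, and Hsp68, at 106, 242 and 417 CPM in antennal lobe and 1269, 808 and 1590.4 CPM in type II libraries, was not called (adjusted p = 0.103). The summed level of the list ran from 10507 to 13145 CPM in antennal lobe and from 17657 to 18883 CPM in type II libraries. The share of ribosomal RNA was also larger in type II libraries, at 10.8% in antennal lobe and 12.7 to 16.2% in type II libraries, and the part of either in the metabolic changes was not tested.

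Asymmetric division was next. brat, a translational repressor handed to the daughter, stood at 1708, 1631 and 1881 CPM in antennal lobe, against 1129, 1249 and 1106 CPM in type II libraries (log2 change 0.58 ± 0.12, adjusted p = 0.0028). mira, the scaffold that carries Pros and Brat, went the other way at 343, 277 and 401 CPM in antennal lobe, against 541, 504 and 497 CPM in type II libraries (log2 change -0.59 ± 0.14, adjusted p = 0.00842), with the call held in 4 of 6 fits without a library. With pros that made 2 rises and 1 fall among 6 basal determinants, 50.0% against 11.4% of all genes. The genes numb, pon and stau were not called. Under ERCC scaling 1 rose and 2 fell, and brat stood at -0.49. On the apical side 17.6% of 17 genes were called, near the 11.4% of all genes. 2 rose, the adaptor insc (log2 change 0.94, adjusted p = 0.000552) and the G protein regulator loco (log2 change 0.94, adjusted p = 0.0112), and l(2)gl fell (log2 change -0.41, adjusted p = 0.0393) in a call that 1 of 6 fits without a library kept. baz, aPKC and par-6 were not called. The counted span of insc overlaps sktl on the same strand. Under ERCC scaling none of the 17 rose, 5 fell, and insc and loco stood at -0.11 and -0.12.

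Notch signalling can help to keep neuroblasts in the stem cell state after division. The receptor gene N stood at 861, 815 and 741 CPM in antennal lobe, against 515, 497 and 493 CPM in type II libraries (log2 change 0.68 ± 0.12, adjusted p = 0.000549). The ligand Dl (log2 change 0.62, adjusted p = 0.0149), its ubiquitin ligase neur (log2 change 0.73, adjusted p = 0.0091) and the protease kuz (log2 change 1.23, adjusted p = 0.00347), which sheds the receptor, rose with it. Psn, the catalytic part of gamma-secretase, fell (log2 change -0.92, adjusted p = 0.00593), while its partner aph-1 rose (log2 change 1.07, adjusted p = 0.0216). In all 5 of 19 members rose and 2, Psn and nab, fell, 36.8% against 11.4% of all genes, and 2 to 5 rose over the fits without a library; under ERCC scaling none rose, 4 fell, and N, Dl and neur stood at -0.42, -0.38 and -0.23. The call of aph-1 held in 3 of 6 fits without a library. Among 12 E(spl) and Hes genes only dpn was called, 8.33% against 11.4% of all genes, and the median of the list was -0.40. E(spl)mgamma-HLH, the target best known in neuroblasts, stood at 168, 319 and 262 CPM in antennal lobe and 156, 366 and 416 CPM in type II libraries (adjusted p = 0.631), and library 1 was the lowest of its group in both.

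In the EGFR and Ras list 4 of 26 rose and 1, pnt, fell, 19.2% against 11.4% of all genes. kek1, an inhibitor of the EGF receptor, stood at 195, 190.0 and 233 CPM in antennal lobe, against 29.6, 16.5 and 19.6 CPM in type II libraries (log2 change 3.22 ± 0.21, adjusted p = 3.96e-11). Star, S (log2 change 0.99, adjusted p = 0.000369), which helps to process the ligand, the ligand gene spi (log2 change 0.61, adjusted p = 0.0126) and the phosphatase gene csw (log2 change 0.88, adjusted p = 0.0181) rose, whereas Egfr was not called (log2 change 0.31, adjusted p = 0.46). Under ERCC scaling 1 of the list rose and 5 fell, with S at -0.05, spi at -0.51 and csw at -0.11. The span of spi holds mir-2a-1, mir-2a-2 and mir-2b-2 on the same strand.

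BMP genes gave 4 rises and no fall among 18, 22.2% against 11.4% of all genes, and no rise and 3 falls under ERCC scaling. The type I receptor tkv stood at 207, 199 and 159.9 CPM in antennal lobe, against 61.6, 66.8 and 74.7 CPM in type II libraries (log2 change 1.48 ± 0.22, adjusted p = 4.59e-05). The inhibitory Smad gene Dad stood at 39.7, 93.3 and 32.1 CPM in antennal lobe, against 7.56, 9.64 and 17.9 CPM in type II libraries (log2 change 2.24 ± 0.48, adjusted p = 0.0032). The nuclear cofactor shn rose (log2 change 1.08, adjusted p = 0.000166), and the Activin ligand gene Actbeta rose (log2 change 1.76, adjusted p = 0.031) in a call that 2 of 6 fits without a library kept. The ligand genes dpp and gbb were not called.

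Wnt and Hedgehog genes gave 5 rises and 2 falls among 29, 24.1% against 11.4% of all genes, and 1 rise and 5 falls under ERCC scaling. The Wnt receptor gene fz2 stood at 267, 269.6 and 216 CPM in antennal lobe, against 95.4, 93.4 and 79.9 CPM in type II libraries (log2 change 1.48 ± 0.19, adjusted p = 6.56e-06). The Wnt5 receptor drl stood at 59.4, 42.7 and 34.7 CPM in antennal lobe, against 3.69, 6.20 and 5.23 CPM in type II libraries (log2 change 3.18 ± 0.38, adjusted p = 2.01e-06). The nuclear factor pan (TCF) fell, with 34.7, 52.5 and 16.9 CPM in antennal lobe, against 205, 259.7 and 191 CPM in type II libraries (log2 change -2.66 ± 0.32, adjusted p = 0.000144), and so did its partner arm (beta-catenin, log2 change -0.65, adjusted p = 0.00501). The Hedgehog factor ci (log2 change 1.13, adjusted p = 0.000475) rose, as did the receptor ptc (log2 change 0.70, adjusted p = 0.0456) and the kinase gene sgg (log2 change 0.64, adjusted p = 0.0163). Under ERCC scaling ptc and sgg stood at -0.33 and -0.43, and the call of ptc held in 1 of 6 fits without a library. Stat92E (log2 change 0.96, adjusted p = 0.00173) and its feedback inhibitor Socs36E (log2 change 0.90, adjusted p = 0.0292) were the JAK/STAT genes that rose, 2 of 4 tested (50.0% against 11.4% of all genes). They stood at -0.03 and -0.02 under ERCC scaling, and the call of Socs36E held in 2 of 6 fits without a library. In the insulin and TOR list 1 of 19 was called, 5.26% against 11.4% of all genes. That gene was jeb (log2 change 3.03, adjusted p = 0.00227).

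The homeobox gene hth, an Exd cofactor, was abundant in antennal lobe libraries. It stood at 1975, 1767 and 2287 CPM in antennal lobe, against 388, 375 and 293 CPM in type II libraries (log2 change 2.51 ± 0.23, adjusted p = 4.08e-06), and averaged 58.6 CPM in mushroom body neuroblasts. Among 39 tested homeobox and POU genes 7 rose and 2 fell, 23.1% against 11.4% of all genes, and under ERCC scaling 7 rose and 7 fell. The Iroquois gene caup, spread over 3-fold among the antennal lobe libraries, was at 9.19, 13.1 and 29.7 CPM in antennal lobe, against 1 count in the type II libraries together (ratio 260.2, counting interval 46.4 to 10302). From other lists, the retinal determination genes dac (log2 change 3.67, adjusted p = 0.000264) and toy (log2 change 1.38, adjusted p = 0.00444) rose. The segmentation gene run fell (log2 change -2.03, adjusted p = 0.000918). The T-box and Spalt list gave 3 rises among 8, 37.5% against 11.4% of all genes. One of them, disco-r, had 49 counts in antennal lobe libraries and none in type II libraries, so it was at least 10.7-fold higher. Its call held in 1 of 6 fits without a library.

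Among surface proteins used for wiring, calls were mostly rises, though not under ERCC scaling. hig, a secreted synaptic cleft protein, stood at 389, 357 and 329.7 CPM in antennal lobe, against 30.8, 38.5 and 37.2 CPM in type II libraries (log2 change 3.34 ± 0.17, adjusted p = 4.86e-13). Its span holds 3 Cyp4p genes on the opposite strand, whose counts were 207, 160 and 249 in antennal lobe and 138, 315 and 106 in type II libraries. The seven-pass cadherin stan stood at 604, 587 and 505 CPM in antennal lobe, against 126, 202 and 111 CPM in type II libraries (log2 change 1.95 ± 0.27, adjusted p = 0.000454). Dscam (log2 change 1.52, adjusted p = 0.000105), Dscam4 (log2 change 1.71, adjusted p = 0.00909), Sema-1a (log2 change 1.18, adjusted p = 0.00112), Ten-m (log2 change 1.13, adjusted p = 0.00187) and sdk (log2 change 0.67, adjusted p = 0.00186), all receptors or ligands of neurite targeting or lamination, rose. Of 34 adhesion genes 9 rose and 1 fell, and of 26 axon guidance genes 7 rose and none fell, that is 29.4% and 26.9% called against 11.4% of all genes. Over the fits without a library 4 to 8 adhesion and 4 to 7 guidance genes rose, and under ERCC scaling 3 and 2 rose while 7 and 4 fell, with sdk at -0.38 and Ten-m at -0.05.

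The summed level of neuron markers was also higher, 1402 to 1482 CPM in antennal lobe and 956 to 1138 CPM in type II libraries, and none of the 20 markers was at 0 over either group. Of 17 tested 1, the vesicle protein gene Csp, rose (log2 change 0.84, adjusted p = 4.45e-05), 5.88% against 11.4% of all genes. Under ERCC scaling Csp stood at -0.19. elav, the pan-neuronal RNA-binding protein, stood at 302, 295 and 304 CPM in antennal lobe and 190.4, 263 and 238 CPM in type II libraries (adjusted p = 0.128), and Syt1 at 47.1, 76.4 and 24.9 CPM in antennal lobe and 9.85, 3.21 and 0 CPM in type II libraries (adjusted p = 0.0598). The part of labelled daughter neurons in the wiring genes was not tested.

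Markers of other cell types were read last. Of 7 tested optic lobe neuroepithelium markers 3 rose (hth, dac and l(1)sc) and 2 fell, Optix among them, 71.4% against 11.4% of all genes. Under ERCC scaling 2 rose and 3 fell. The list summed to 2011 to 2503 CPM in antennal lobe and 516 to 606 CPM in type II libraries, most of the antennal lobe sum being hth. The glial gene repo stood at 0, 0.143 and 0 CPM in antennal lobe and 1.58, 0 and 3.27 CPM in type II libraries. Of 13 tested glia markers 2 rose (loco and Gli) and 2 fell, 30.8% against 11.4% of all genes. The falls were the glutamate transporter gene Eaat1 (log2 change -0.87, adjusted p = 0.000381) and Obp44a (log2 change -2.47, adjusted p = 0.0134). Summed levels of the list were 553 to 585 CPM in antennal lobe and 586 to 673 CPM in type II libraries. The calls of Gli and Obp44a held in 1 and 4 of 6 fits without a library. No blood cell (7 tested) or fat body marker (5 tested) was called; the blood cell genes Hml and nimC1 were at or near 0 in each library. Summed blood markers ran from 73.1 to 81.8 CPM in antennal lobe and 54.1 to 80.8 CPM in type II libraries, and summed fat body markers from 27.4 to 40.5 CPM in antennal lobe and 16.1 to 33.8 CPM in type II libraries. Muscle markers summed to 164 to 192 CPM in antennal lobe and 28.1 to 65.6 CPM in type II libraries. Most of it came from sls, a titin-like gene that was not called (log2 change 2.01, adjusted p = 0.0818). Of 7 tested 1, up, was called at a low level, 14.3% against 11.4% of all genes. Its call held in 1 of the 5 fits without a library that tested it.

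Cell cycle genes were called in both directions under the TMM scaling. Of 47 tested 3 rose and 7 fell, 21.3% against 11.4% of all genes, with a median of -0.17, and 2 to 3 rose and 4 to 6 fell over the fits without a library. The G1/S cyclin gene CycE stood at 1022, 1087 and 1227 CPM in antennal lobe, against 476, 740.0 and 591 CPM in type II libraries (log2 change 0.88 ± 0.15, adjusted p = 0.000414). It stood at -0.09 under ERCC scaling, where none of the list rose and 31 fell. Among mitotic genes the Cdc25 phosphatase gene stg stood at 521, 546 and 679 CPM in antennal lobe, against 765, 951 and 1046 CPM in type II libraries (log2 change -0.66 ± 0.14, adjusted p = 0.00245), and CycB (log2 change -0.63, adjusted p = 0.00229) and the Aurora B kinase gene ial (log2 change -1.57, adjusted p = 0.0012) were lower. The inhibitor of Cdk2, dap, rose (log2 change 2.38, adjusted p = 0.00898) along with CycE.

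Chromatin regulators gave 7 rises and no fall among 24, 29.2% against 11.4% of all genes, all at most 1.32 on the log2 scale. Psc, a subunit of Polycomb repressive complex 1, stood at 639, 623 and 469.9 CPM in antennal lobe, against 329, 343 and 299 CPM in type II libraries (log2 change 0.83 ± 0.19, adjusted p = 0.00785). Its neighbour and paralog Su(z)2 (log2 change 1.32, adjusted p = 0.00971), trx (log2 change 0.59, adjusted p = 0.0163) and Pc (log2 change 0.69, adjusted p = 0.0273) rose too, in calls that 5, 4 and 3 of 6 fits without a library kept. In all 2 to 6 rose over the fits without a library, and under ERCC scaling none rose, 8 fell and Psc, trx and Pc stood at -0.27, -0.56 and -0.37.

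A single noncoding RNA took up much of each library. CR43283 (known as cherub; FBgn0262972, chromosome 3R, 7073825 to 7081845 in dm3) held 18.8 to 20.7% of gene counts in antennal lobe and 10.3 to 12.3% in type II libraries (log2 change 0.91 ± 0.13, adjusted p = 9.95e-05). Under ERCC scaling its change was -0.18. Hsromega, the heat-inducible nuclear noncoding RNA, was lower, at 3392, 4173 and 3611 CPM in antennal lobe, against 7281, 7775 and 5911 CPM in type II libraries (log2 change -0.91 ± 0.23, adjusted p = 0.0293), in a call that 1 of 6 fits without a library kept. roX1, the dosage compensation RNA, was not called, at 5118, 5286 and 5156 CPM in antennal lobe and 5532, 6622 and 5673 CPM in type II libraries.

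**Figure D5:**
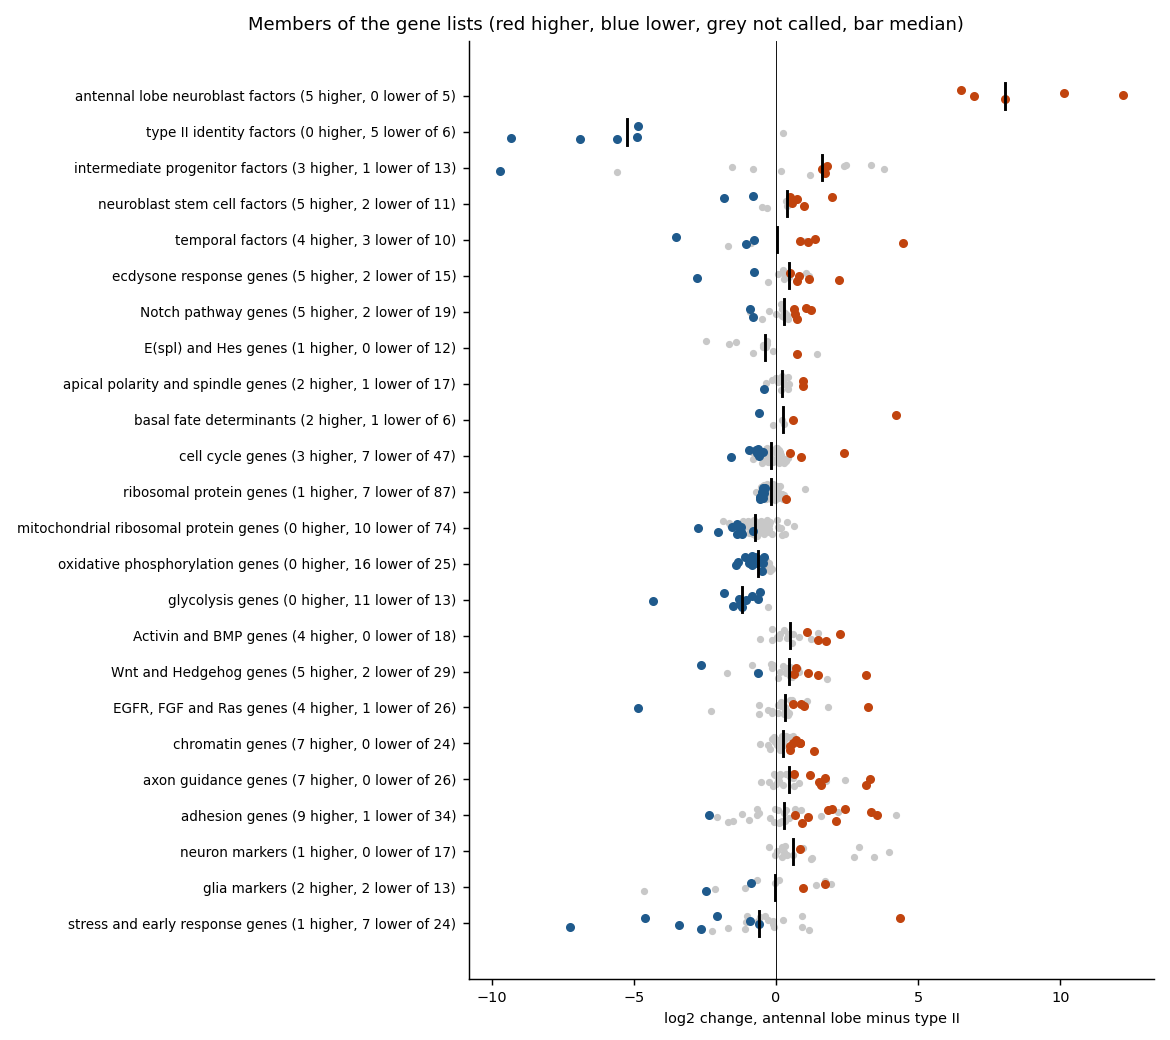
Log2 change (antennal lobe minus type II) of each tested member of 24 gene lists, red where higher, blue where lower and grey where not called, with the list's median as a black bar and its counts beside its name. Antennal lobe factors (median 8.05) and type II factors (median -5.26) stand far from 0. Intermediate progenitor factors (1.62) lie right of 0. Glycolysis (-1.21), mitochondrial ribosomal (-0.74), oxidative phosphorylation (-0.65) and stress genes (-0.61) lie left of it. Most other lists centre nearer 0 with called members on both sides or on the right.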

How the data were processed

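RNA from pools of sorted cells was amplified (Ovation V2) and sequenced, per the labels' protocols. The deposited count table was made by the authors, and the deposited TPM table holds the authors' TPM of the same libraries; the submitters' processing notes name CASAVA, cutadapt 1.7.1, Bowtie2 2.1.0, STAR 2.4.0i, HTSeq 0.6.1p1, dm3 and mm10, without roles. Whether counting used strand is not stated per the labels or headers, so genes that overlap, and close paralogs, may share reads. Positions and GO terms are the authors' annotation columns. ERCC entries, counter summary rows and an entry without a name (at most 17 counts) were left out.

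Counts of 12 neuroblast libraries (4 groups of 3) were fitted with edgeR 4.0.16 in R 4.3.3 (TMM, filterByExpr, robust quasi-likelihood, 8 residual degrees of freedom, biological coefficient of variation 0.406), and antennal lobe minus type II was tested, with Benjamini-Hochberg adjustment over 9249 genes and a threshold of 0.05. SE is the log2 change over the root of F. CPM use the fit's scaling. The script was tested on simulated counts with 200 changed genes. No sequences are shown.

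Named are the 12 called genes with the largest change each way (20 CPM or more in the higher group, groups without overlap), 6 markers (ems, mid, tll, ase, pnt, Sp1), and up to 4 called members of each list by p. Other genes named, members not called among them, were chosen after their values were seen. The gene lists and members were chosen with earlier results of these data known, so none is independent evidence. Counting intervals and floors (3 counts over a group) cover counting error alone, since reads carry no molecular identifiers. Deviations of same-numbered libraries from their group means correlated at 0.058, 0.017 and 0.113, against -0.085 to 0.037 for libraries of different numbers. All were small, and the numbers were not taken to pair libraries. Within groups, counts of replicates differed by 14.2 to 19.8 times sampling noise (chi-square over degrees of freedom), and none was treated as a copy. Alternatives were RLE factors, DESeq2 1.42.0, other filters, 6 libraries, a replicate block, ERCC scaling, ribosomal RNA genes left out, limma 3.58.1 on log2(TPM + 1) or log2(TPM + 0.1) for genes with 1 TPM or more in 3 libraries, a test against a log2 change of 1, and each library left out.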

Additional observations from a re-analysis of the deposited data

How the results depend on the processing

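No call turned into one of the opposite direction under any alternative. Higher and lower genes numbered 562 and 494, against 606 and 448 with RLE factors, 803 and 586 with DESeq2, 783 and 506 without a filter and 413 and 438 with limma on log2(TPM + 1). The test against a log2 change of 1 called 68 and 38, and ERCC scaling per cell 100 and 3179. ERCC scaling without type II library 1, chosen after seeing the data, called 217 and 1261. Over the fits that leave out 1 library the counts ran from 293 to 522 higher and 274 to 439 lower; they were 359 and 274 without antennal lobe library 1, 410 and 308 without library 2, 444 and 313 without type II library 1, and 293 and 289 without library 3, and the tests then had fewer libraries. The median (0.00) was 0.04 with RLE, DESeq2, no filter and log2(TPM + 0.1), 0.03 with log2(TPM + 1), -0.03 with the stricter filter, 0.01 to 0.07 with a library left out, -1.06 with ERCC scaling and -0.43 with that scaling and no type II library 1. Library numbers were not taken to pair libraries, and with the replicate block 559 genes were higher and 480 lower, with 966 of the 1056 calls shared. Each antennal lobe library correlated best with the type II library of its own number, while type II library 2 correlated best with antennal lobe library 1. RNA per cell differed by -1.06 to -0.35 with a library left out.

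ERCC scaling turned the sign of 21 of the 116 called genes chosen by rule, none of them then called: klu -0.10, wor -0.46, ftz-f1 -0.35, N -0.42, dpn -0.11, insc -0.11, loco -0.12, brat -0.49, CycE -0.09, RpS7 -0.71, S -0.05, spi -0.51, Stat92E -0.03, Socs36E -0.02, Psc -0.27, trx -0.56, Pc -0.37, sdk -0.38, Ten-m -0.05, Csp -0.19 and CR43283 -0.18. Of 17 called genes named outside the rule it turned 6: Dl -0.38, chinmo -0.29, csw -0.11, neur -0.23, ptc -0.33 and sgg -0.43. Without type II library 1 it turned, of all of these, wor (-0.01), dpn (-0.02) and RpS7 (-0.13). Of the 116 7 to 20 lost their call when 1 library was left out, and 76 in the test against a log2 change of 1. Depth limits genes at a few CPM, such as ato, with no count in 1 of the 3 type II libraries.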

Other observations

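Of 328 tested genes that the authors' annotation gives a DNA-binding transcription factor term, 62 rose and 20 fell in antennal lobe neuroblasts, 25.0% against 11.4% of all genes tested, with 42 to 60 rises and 16 to 20 falls over the fits without a library, and 19 rises and 84 falls under ERCC scaling. The small chromosome 4 had 17 rises and 3 falls among 82 tested genes, 24.4% against 11.4% of all genes tested. There were 10 to 13 rises and 1 to 2 falls without a library, and 1 rise and 17 falls under ERCC scaling. Among 88 genes limma gave 10 rises on log2(TPM + 1) and 8 on log2(TPM + 0.1), each with 1 fall. Genes of chromosome 4 include ci, toy and Actbeta among the rises and pan among the falls.

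Some genes outside the lists, chosen after their values were seen, fell beside the glycolysis genes. The trehalose transporter gene Tret1-1 stood at 35.1, 24.1 and 26.3 CPM in antennal lobe, against 642, 432 and 485 CPM in type II libraries (log2 change -4.19 ± 0.21, adjusted p = 6.35e-13), and averaged 395 CPM in mushroom body neuroblasts. asparagine-synthetase averaged 7.94 ± 4.06 CPM in antennal lobe, against 66.9 ± 6.24 CPM in type II libraries (SD, n = 3 each; log2 change -3.08 ± 0.34, adjusted p = 1.26e-06). Both had their lowest mean in antennal lobe libraries among the 4 neuroblast groups, with 95.7 CPM of asparagine-synthetase in mushroom body and 20.6 CPM in pooled neuroblasts.

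The cell death genes grim and W (hid), also chosen after their values were seen, went opposite ways at low levels. grim stood at 4.80, 30.5 and 14.9 CPM in antennal lobe, against 0, 1.38 and 1.09 CPM in type II libraries (log2 change 4.37 ± 1.03, adjusted p = 0.00843). W had no count in antennal lobe libraries, against 3.52, 5.28 and 0.436 CPM in type II libraries, so it was at least 22.8-fold lower with a floor of 3 counts over the antennal lobe group (adjusted p = 0.00554).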
